A study of Ovis aries with 16 samples.

Results

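Perirenal adipose tissue of control male sheep fetuses (MC) was compared with that of control female fetuses (FC). The comparison used 8 of the 16 RNAseq libraries of the series, 4 from MC and 4 from FC, chosen by the sex and the treatment in their labels. Each library came from 1 fetus. The fetuses were near term and were singletons of crossbred Columbia-Rambouillet ewes, and all 8 came from control pregnancies. The control ewes lived at a neutral temperature and were fed to match the intake of heat-exposed ewes. The other 8 libraries, from fetuses whose growth was restricted by maternal hyperthermia, were used only in an alternative fit. The labels name no batch, so the sex of the fetus and any difference in how male and female libraries were handled, or in how their reads were assigned to transcripts, cannot be told apart.

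Perirenal fat of the newborn lamb is rich in brown adipocytes, which burn fuel for heat. Their mitochondria carry uncoupling protein 1 (UCP1), which lets protons return to the matrix without making ATP. The respiratory chain that builds the proton gradient has subunits encoded in both the nuclear and the mitochondrial genome. Fat cells arise from preadipocytes of the stroma, and white adipocytes of the same depot store lipid in place of burning it.

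The values are TPM, abundances which are scaled to transcript length and to a fixed sum in each library. They keep no read counts, so the depth of each library is unknown, and the precision of each difference was taken from the spread between fetuses. The deposited table lists 35219 transcripts, of which 4121 reached 20 TPM in 3 or more of the 8 libraries and were tested. In each library the tested transcripts made up 91.6% to 94.3% of the TPM. Differences are log2 fold changes of TPM + 1, MC minus FC, from limma with Benjamini-Hochberg adjustment over all transcripts tested, and they understate the change of low transcripts. A transcript is said to have risen or fallen in MC where its adjusted p was under 0.05, and to have been called where its fold was also above 1.5. The table holds transcript identifiers without gene names. The study prints names beside the identifiers of 9 marker transcripts and 11 mitochondrial transcripts used here, and pathway membership for others.

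The groups lay far apart. Values above 0 were listed for 20510 to 21917 transcripts in MC and 20153 to 20931 in FC. Across the transcripts tested, log2 values of libraries correlated at 0.919 to 0.960 within MC, at 0.916 to 0.962 within FC and at 0.704 to 0.758 between the groups. These correlations are across transcripts, which are not independent replicates. Principal component 1 held 72.1% of the variance, with scores of -42.1 to -35.7 for the males and 33.7 to 43.6 for the females. Component 2 held 8.06% and spread the fetuses within the groups, with the second and the third MC fetus at its ends (23.4 and -25.2).

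Between MC and FC, 1190 of the 4121 transcripts were called in limma (28.9%, smallest adjusted p = 7.66e-09). Of these, 272 were higher in MC (6.60% of those tested) and 918 were lower (22.3%). At any fold 430 rose (10.4%) and 1276 fell (31.0%). The standard error of the log2 fold change had a median of 0.16, and the median SD between fetuses was 0.22 in MC and 0.21 in FC. All 4 MC libraries were above all 4 FC libraries for 383 transcripts (9.29%) and below them for 1205 (29.2%). The split between directions depended on the scaling of the libraries. The median log2 fold change of all transcripts tested was -0.20 in TPM, so a value near it moved with the bulk of the transcripts. With median-of-ratios scaling the median was -0.12, with 357 called higher and 783 lower in MC. With TPM rescaled without the 11 mitochondrial transcripts it was -0.08, with 419 higher and 709 lower, and with quantile normalization 0.04, with 590 higher and 575 lower.

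Large differences were mostly towards lower values in MC. Among the called transcripts, 103 were over 2-fold higher in MC and 486 were over 2-fold lower. Over 4-fold there were 32 higher and 212 lower, and over 8-fold 22 higher and 151 lower. At the far end, 18 transcripts had at least 20 TPM in all 4 FC libraries and were listed at 0 in all 4 MC libraries, with FC medians of 23.6 to 338 TPM. The reverse held for 1 transcript. With a limit of 1 TPM in place of 0 the counts were 41 and 2.

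Part of the count is set by the filter, since a transcript could pass it in 1 group alone. The 758 transcripts that reached 20 TPM in 3 FC libraries but not in 3 MC libraries held 427 of the calls lower in MC, and the 343 that did so only in MC held 121 of the calls higher in MC. Among the 2852 transcripts that reached it in both groups, 151 were called higher and 491 lower, or 22.5% in all. Calls were spread over the range of levels. The transcripts were ranked by mean level and cut into 5 bins. The share called was 41.1% in the lowest bin (median level 19.8 TPM) and 27.8% in the highest (median level 222 TPM). In the bins between, from low to high, it was 21.6%, 25.4% and 28.5%.

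The called transcripts took up a large part of the RNA measured. Those called lower in MC summed to 105302 to 114215 TPM in the males and 249940 to 257724 in the females. Those called higher summed to between 221764 and 238313 TPM in MC and to between 91484 and 114158 in FC. Without the mitochondrial transcripts among them, the sums of those called higher were 94010 to 111334 TPM in MC and 30912 to 33511 in FC. Those called lower then summed to 62856 to 69522 TPM in MC and 159104 to 186473 in FC. These sums describe the calls and were not tested, since the same values chose the transcripts.

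**Figure D1:**
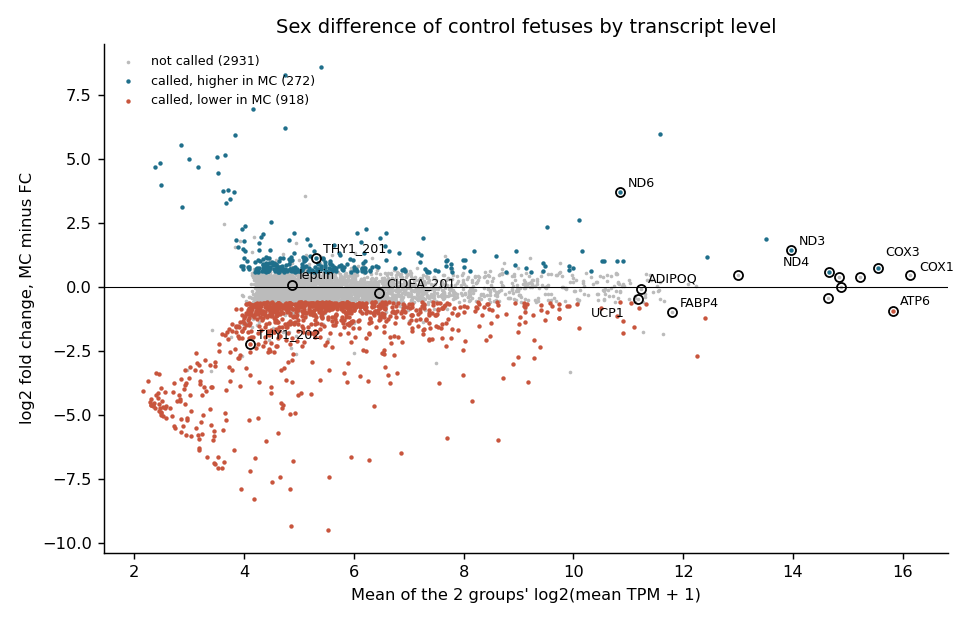
Log2 fold change of TPM + 1 (MC minus FC, y axis) against level (x axis, mean over both groups of the log2 of mean TPM + 1) for the 4121 transcripts tested, each point 1 transcript. Coloured points were called, 272 higher and 918 lower in MC, and black rings mark the 18 named transcripts above the filter, 13 of them with a label.

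The 11 mitochondrial transcripts did not move as 1 block. In limma 6 of them rose in MC (COX1, COX2, COX3, ND3, ND4 and ND6), ATP6 fell, and ND1, ND2, ND5 and CYTB did not pass, where 10.4% of all transcripts rose and 31.0% fell. Of the 11, 5 were called (28.9% of all transcripts). Without overlap, 7 lay above FC in all 4 MC libraries (9.29% of all transcripts) and 1 below (29.2%). With other scalings the counts were 4 risen and 1 fallen (median-of-ratios) and 7 risen and 2 fallen (quantile). Together they made up 392530 ± 35512 TPM in the males and 334336 ± 42760 TPM in the females (SD, n = 4), a ratio of 1.17, which did not pass (exact permutation test, two-sided, p = 0.114). In single libraries the sum was 350134 to 434887 TPM for MC against 288377 to 387950 for FC, so the groups overlapped.

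Among the 6 mitochondrial transcripts of complex I examined here, an entry of electrons into the chain, ND6 had the highest log2 fold change. ND6 is encoded on the opposite strand of the mitochondrial genome to the other 10. Whether the quantification used strand is not given in the sources used here, and without it reads of ND6 and reads of the other strand at that place cannot be told apart. Its TPM was 5027, 6599, 7727 and 7407 in MC1 to MC4 and 424, 497, 542 and 568 in FC1 to FC4. Every male library was above every female library by a wide margin, and the ratio of the mean TPM was 13.2. The log2 fold change was 3.71 (SE 0.16, limma adjusted p = 3.96e-07). ND3 had 27377, 29824, 19681 and 27483 TPM in MC and 7332, 13113, 10258 and 8411 in FC, again without overlap (log2 fold change 1.43, SE 0.20, limma adjusted p = 0.000669). ND4 was at 29489 to 34288 TPM in the males and 16590 to 25769 in the females (0.60, SE 0.13, limma adjusted p = 0.00782).

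The other complex I transcripts did not pass. ND1 was 30068 ± 3674 TPM in MC and 30077 ± 5331 in FC (SD, n = 4), a log2 fold change of 0.01 with a 95% confidence interval of -0.33 to 0.35 (limma adjusted p = 0.965). ND2 leaned lower in MC (-0.43, 95% confidence interval -0.82 to -0.04, limma adjusted p = 0.0738), and ND5 leaned higher (0.48, 0.04 to 0.91, limma adjusted p = 0.0749). Under quantile normalization ND2 fell (-1.003) while the values of ND1 and ND5 were -0.29 and -0.15 and did not pass.

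The 3 mitochondrial subunits of cytochrome c oxidase, the terminal enzyme of the chain, had higher means in MC. COX3 had 67150, 64361, 52297 and 63926 TPM in MC and 34847, 41267, 34011 and 38213 in FC, with no overlap (log2 fold change 0.74, SE 0.11, limma adjusted p = 0.00101). COX1, the most abundant of the 11 in MC, rose by 0.48 (SE 0.13, limma adjusted p = 0.0169), and COX2 by 0.41 (SE 0.14, limma adjusted p = 0.0469), both under the 1.5-fold limit. The COX1 libraries did not overlap, and nor did those of COX2, where the lowest MC library had 37279 TPM and the highest FC library 36906. Neither was stable. COX2 no longer passed in most alternatives, among them the fit of all 16 libraries (limma adjusted p = 0.0634). COX1 did not pass with median-of-ratios scaling (limma adjusted p = 0.0589), without the third FC library (0.0666), without the second MC and the third FC library (0.0878) or with no filter (0.673). The sum of the 3 was 190916 ± 22486 TPM in MC and 130897 ± 14036 in FC (SD, n = 4, exact permutation test, two-sided, p = 0.0286). That is the smallest p that 4 libraries against 4 allow. Adjusted over the 23 single values tested this way it was 0.0548, so none of these values passed after the adjustment. The 23 include ratios and shares chosen with earlier results of these data known, so the adjusted p depends on that choice.

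ATP6, a subunit of the ATP synthase that uses the proton gradient, went the other way. It had 50342, 42446, 36344 and 39393 TPM in MC and 71251, 92038, 71312 and 82731 in FC. Every female library was above every male library (log2 fold change -0.92, SE 0.13, limma adjusted p = 0.000803). CYTB, the mitochondrial subunit of complex III, had libraries of 30524 to 36145 TPM in MC and 19929 to 30516 in FC, which did not overlap, but its limma adjusted p was 0.0506 (log2 fold change 0.38, 95% confidence interval 0.07 to 0.69).

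**Figure D2:**
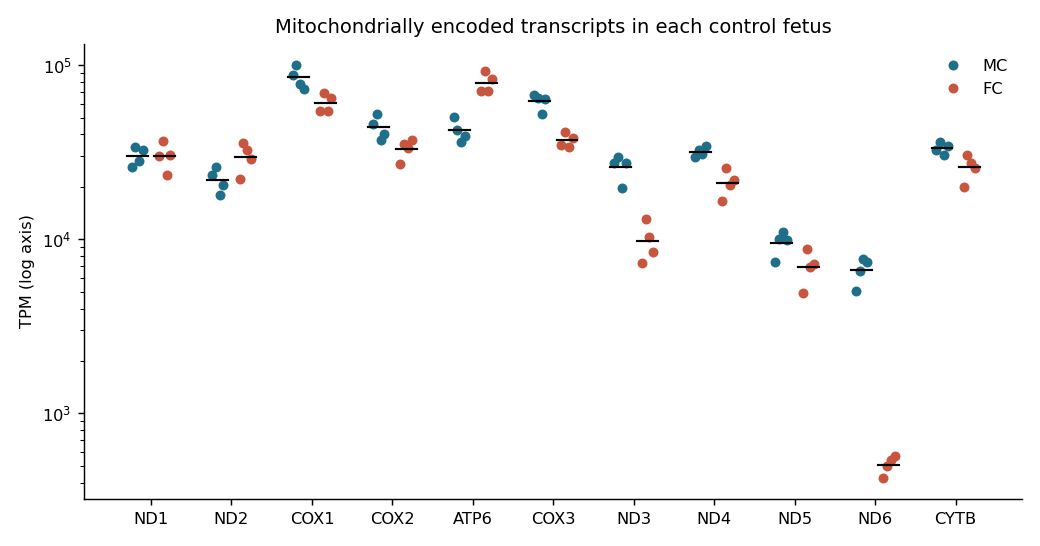
TPM (log axis) of the 11 mitochondrial transcripts in each control fetus, MC in blue and FC in orange, each point 1 library and each black line the mean of 4. ND6 and ND3 stand highest in MC relative to FC, ATP6 is lower in all 4 MC libraries, and ND1 overlaps.

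Ratios within a library do not change with a scaling factor of that library. The 3 ratios given here pair transcripts already seen to differ in their behaviour. They were among the single values tested, but are given only as a description, without a p-value. ATP6 was 0.680 ± 0.0565 times COX3 in MC and 2.13 ± 0.0808 times in FC (SD, n = 4). ND6 was 0.698 ± 0.0397 times ND5 in MC and 0.0750 ± 0.0129 times in FC, and ND3 was 1.19 ± 0.112 times ND2 in MC and 0.327 ± 0.0324 times in FC. In each of the 3 ratios the groups did not overlap. As a share of mitochondrial TPM, ATP6 made up 10.7% ± 1.22 in MC and 23.7% ± 0.859 in FC, COX3 15.8% ± 1.06 and 11.1% ± 0.652, and ND6 1.73% ± 0.426 and 0.153% ± 0.0195. COX1, ND3 and ND4 also made up more of it in MC and ND2 less, in all 4 cases without overlap. Shares of 1 sum are tied to each other, so the lower ATP6 share in MC by itself raises the other shares. They are not separate differences, and shares without ATP6 were not tested. The shares of ND1, COX2, ND5 and CYTB overlapped between the groups.

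UCP1, ADIPOQ and FABP4 were abundant in all 8 libraries, and no marker transcript of brown or mature adipocytes passed in limma. UCP1 had 1548, 3366, 1317 and 1596 TPM in MC and 1839, 1803, 4430 and 2768 in FC. The second MC and the third FC fetus were highest in their groups, and the groups overlapped (log2 fold change -0.47, 95% confidence interval -1.30 to 0.35, limma adjusted p = 0.322). The interval spans both a fall of over 2-fold and a small rise. CIDEA, a lipid droplet protein of brown adipocytes, has 2 transcripts here. CIDEA_201 was 80.3 ± 12.7 TPM in MC and 93.8 ± 16.5 in FC (SD, n = 4, log2 fold change -0.22, 95% confidence interval -0.59 to 0.15, limma adjusted p = 0.311). CIDEA_202 was under the filter, at 13.7 ± 1.04 and 13.0 ± 6.97 TPM, with a limma adjusted p of 0.689 in the wider fit of 15838 transcripts, with the filter lowered to 1 TPM.

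Adiponectin (ADIPOQ), a hormone of mature adipocytes, had 2322, 2197, 2311 and 2388 TPM in MC and 3293, 2633, 1741 and 2392 in FC. The 4 males lay close together and inside the wider range of the females (log2 fold change -0.09, 95% confidence interval -0.49 to 0.31, limma adjusted p = 0.705). FABP4, the fatty acid carrier of adipocytes, had 2553, 4002, 1416 and 1809 TPM in MC and 3637, 2200, 10369 and 4616 in FC. The third FC fetus was far above the rest, and the groups overlapped (-0.97, 95% confidence interval -2.05 to 0.11, limma adjusted p = 0.134). FABP4 fell in MC with a weight for each library (limma adjusted p = 0.0300) and without the second FC fetus (0.0495).

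Of the white adipocyte markers, leptin did not pass and HOXC9 fell. The leptin transcript, which encodes a satiety hormone of fat cells, had 18.8, 47.9, 24.6 and 25.9 TPM in MC and 23.9, 17.9, 46.3 and 21.5 in FC (log2 fold change 0.10, 95% confidence interval -0.67 to 0.88, limma adjusted p = 0.828). HOXC9, a homeobox gene used as a white fat marker, was low, with 3.80, 3.72, 6.94 and 3.55 TPM in MC and 11.1, 8.04, 10.2 and 9.58 in FC. All 4 females were above all 4 males. In the fit with the filter at 1 TPM, where 19.9% of transcripts rose or fell, its log2 fold change was -0.995 (SE 0.21, limma adjusted p = 0.00976). Without the second MC and the third FC library it was -0.91 (limma adjusted p = 0.0545), an alternative chosen after the values were seen.

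**Figure D3:**
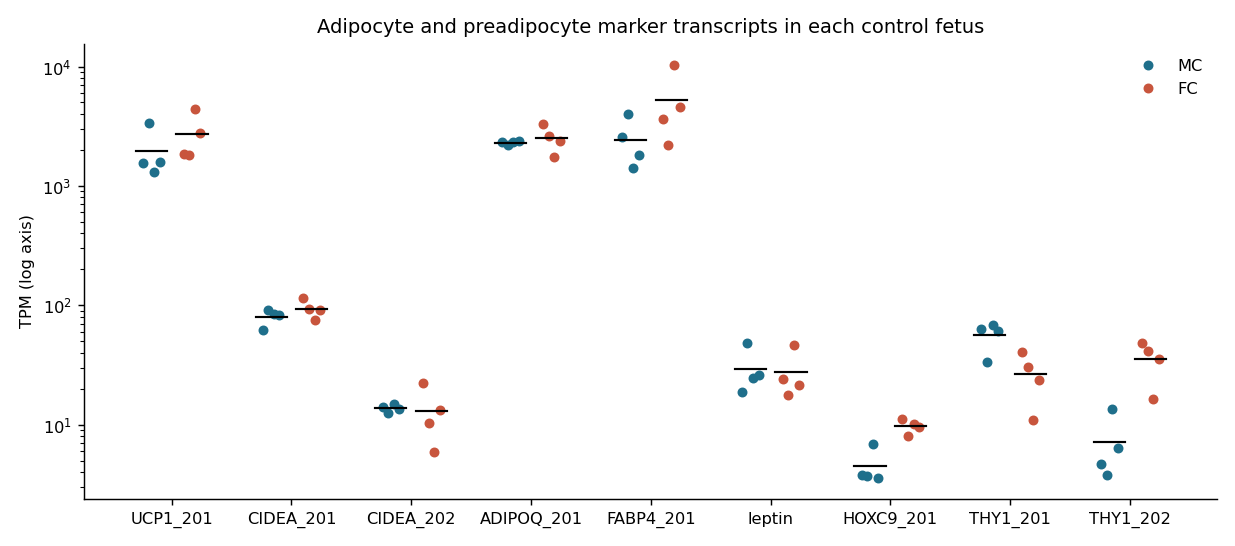
TPM (log axis) of the 9 marker transcripts in each control fetus, MC in blue and FC in orange, each point 1 library and each black line the mean of 4. MC and FC overlap for 7 of the 9 transcripts and lie apart for HOXC9_201 and THY1_202, both lower in MC. Of all transcripts tested, 29.2% had all 4 MC libraries below all 4 FC libraries and 9.29% had them above.

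THY1, a surface protein of preadipocytes and other stromal cells, differed in its transcripts and not detectably in its sum. THY1_202 had 4.67, 3.80, 13.6 and 6.36 TPM in MC and 48.3, 41.4, 16.5 and 35.5 in FC, without overlap (log2 fold change -2.21, SE 0.42, limma adjusted p = 0.00339). It passed the 20 TPM filter only through the FC libraries, so its fall in that fit is a description. With the filter at 1 TPM, which the MC libraries also passed, the limma adjusted p was 0.00556. THY1_201 had 63.0, 33.1, 68.1 and 60.9 TPM in MC and 40.4, 30.3, 10.9 and 23.7 in FC. It rose in MC (1.15, SE 0.38, limma adjusted p = 0.0389), but the second MC fetus lay below the first FC fetus and the call was not stable. The adjusted p was 0.0571 in limma with all 16 libraries and 0.0602 to 0.0902 without MC1, MC3, MC4, FC3 or FC4. The 2 transcripts together gave 63.4 ± 18.9 TPM in MC and 61.8 ± 25.9 in FC (SD, n = 4, exact permutation test, two-sided, p = 0.914). THY1_201 made up 83.4% to 93.1% of that sum in MC and 39.8% to 45.5% in FC, a share that was chosen with earlier results of these data known. It was among the single values tested, but is given only as a description, without a p-value. For CIDEA the share of CIDEA_201 was 85.2% ± 2.64 in males and 88.5% ± 3.84 in females (SD, n = 4, exact permutation test, p = 0.257). In bulk tissue, fewer cells of a type and less RNA per cell cannot be told apart. Defining genes of other cell types were not matched to identifiers and were not examined here.

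**Figure D4:**
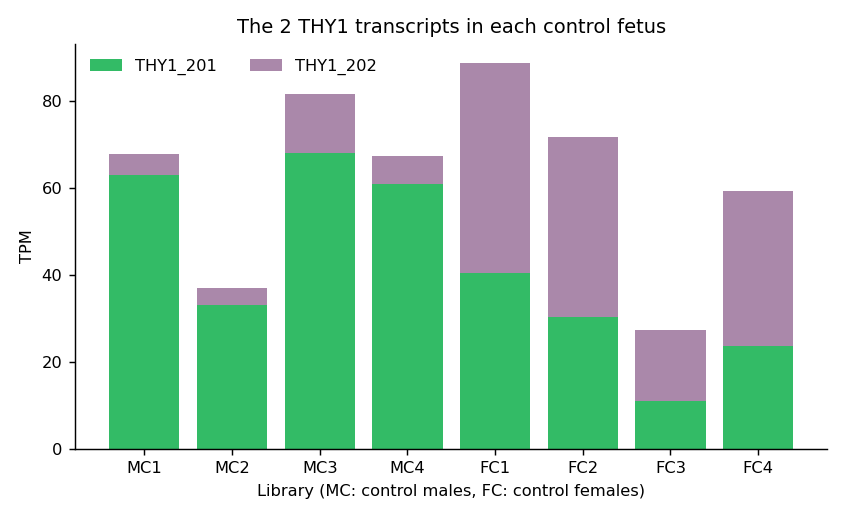
TPM of THY1_201 (green) and THY1_202 (violet) stacked for each control fetus, with the axis from 0. The height of the bars overlaps between MC and FC, while THY1_201 takes 83.4% or more of each MC bar and 45.5% or less of each FC bar.

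Pathway lists could be followed through the identifiers in the study's supplement. The 12 lists of the sex comparison were chosen by the study on these same libraries, so their directions are not independent evidence, and only the sizes and the overlaps between lists are described. They hold 100 different transcripts. Some members passed the 20 TPM filter only through the group where they are higher, so counts of risen or fallen members are a description. Through FC alone these include ENSOART00020025754 and ENSOART00020027092 (Parkinson disease), ENSOART00020015916 (thermogenesis) and ENSOART00020016816 (spliceosome). Through MC alone they include ENSOART00020018396 (phagosome). Over all transcripts tested 10.4% rose and 31.0% fell, with a median of -0.20.

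Oxidative phosphorylation, the respiratory chain with its ATP synthase, appears in both directions. On the list given as lower in MC, 12 of 12 members were tested and 12 fell, with a median log2 fold change of -1.36. Without the mitochondrial ATP6 its 11 members summed to 4368, 5148, 4873 and 5730 TPM in MC and 15220, 13811, 13888 and 13904 in FC, or 2.82 times more in FC. On the list given as higher in MC, 11 of 13 members were tested and 11 rose, with a median of 0.64. Its 9 members outside the 11 mitochondrial transcripts summed to 4398, 4628, 4851 and 5496 TPM in MC and 3206, 2886, 2902 and 3085 in FC, or 1.60 times more in MC. The choice of members fixes the direction of both sums. Both lists hold transcripts besides the 11 mitochondrial ones.

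The thermogenesis list, with 16 of 17 members tested, shared 11 with the first oxidative phosphorylation list, and its 16 tested members fell, with a median of -1.27. It holds ATP6 and not UCP1. The list is made only of pathway members that the study found to differ, so the absence of UCP1, which did not pass here, is no separate result. Of the 17 tested members of the Parkinson disease list, 17 fell, among them ENSOART00020034647, which had 5.43, 0, 0 and 0 TPM in MC and 271, 302, 267 and 235 in FC. It was listed at 0 in 3 of the 4 male libraries. Of the 14 tested members of the spliceosome list, whose products cut introns from RNA, 12 fell (median -0.99), and the sum of the list was 738 ± 96.2 TPM in MC and 1622 ± 213 in FC (SD, n = 4).

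Among the lists given as higher in MC, the ribosome list had 18 of 18 members tested, of which 17 rose, with a median of 0.57 over the 18. Its sum was 27989 ± 2891 TPM in MC and 17944 ± 1482 in FC (SD, n = 4). Called were 6 of its 18 members, where 28.9% of all transcripts were called in either direction and 6.60% higher in MC. The member with the highest difference, ENSOART00020039893, had 1939, 1225, 1593 and 1841 TPM in MC and 350, 366, 361 and 231 in FC (log2 fold change 2.33, SE 0.19). The phagosome list, of vesicles that take up and digest particles, had 9 of 12 members tested, of which 8 rose (median 0.80). Its member ENSOART00020001516 had 318, 238, 309 and 320 TPM in MC and 71.0, 75.5, 93.5 and 70.0 in FC (log2 fold change 1.92, SE 0.14). The lists named for amyotrophic lateral sclerosis, Huntington disease, prion disease and diabetic cardiomyopathy each shared 10 members with the higher oxidative phosphorylation list, and 15 of 17, 15 of 16, 14 of 15 and 12 of 13 tested members rose. The steroid biosynthesis list had 1 of 4 members tested, which rose by 0.63.

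Lists that the study chose between growth-restricted males (MFGR) and MC were chosen with the MC libraries, which this comparison shares. Choosing members for being higher in MFGR favours those with low values in MC, and choosing them for being lower favours high values, so their directions against FC are a description and no independent result. Of the 16 members of the ribosome list given as higher in MFGR, 16 were tested, 10 fell and 3 rose in MC against FC, with a median of -0.47. Called were 4 of the 16, where 28.9% of all transcripts were. The 3 that rose are the 3 that both ribosome lists share (16.7% of the first list and 18.75% of the second). Its sum was 22357, 17766, 19364 and 19708 TPM in MC and 36136, 30430, 34784 and 32306 in FC. All 4 females were above all 4 males in this sum, but much of the difference lay in a single member, ENSOART00020009739. That member had 2408, 1700, 1661 and 1892 TPM in MC and 13364, 11392, 12006 and 12381 in FC. The list member ENSOART00020021052 had 8.87, 1.24, 4.12 and 5.39 TPM in MC and 834, 122, 862 and 786 in FC. This transcript and ENSOART00020034647 are the lowest called members of the lists and passed the filter only through the FC libraries, so their values are a description. The coronavirus disease list of the same comparison had 15 members tested, of which 9 fell and 3 rose. Under median-of-ratios scaling 7 of the 16 ribosome members fell and 3 rose.

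Of the metabolic pathways list given as higher in MFGR, 15 of 19 members were tested, 7 fell and 0 rose in MC against FC (median -0.53), and 4 were called, a share near that of all transcripts (28.9%). The fallen member ENSOART00020020067 passed the 20 TPM filter only through the FC libraries. Of the tested members of this list, 3 fell and 0 rose with the median-of-ratios scaling, and 2 fell and 1 rose with the quantile one. Of the PPAR signaling list, which governs fat cell differentiation and lipid handling and holds FABP4, 3 of 4 members were tested. None of the 3 passed in limma (median -0.34), nor with median-of-ratios scaling (median -0.26) or quantile normalization (median -0.14). The lists for xenobiotic metabolism and chemical carcinogenesis had the same 3 of 4 members tested, of which 1 fell and 0 rose. Of the focal adhesion list, whose products anchor cells to the matrix and which is given as lower in MFGR, 4 of 6 members were tested and 1 rose, with 3 risen under median-of-ratios or quantile scaling and 0 in the fit of all 16 libraries. Its sum was 679 ± 179 TPM in males and 436 ± 117 in females (SD, n = 4), and the libraries overlapped. The PI3K-Akt list held the same 4 tested transcripts. Of the steroid biosynthesis list given as lower in MFGR, 2 of 4 members were tested and 1 rose.

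**Figure D5:**
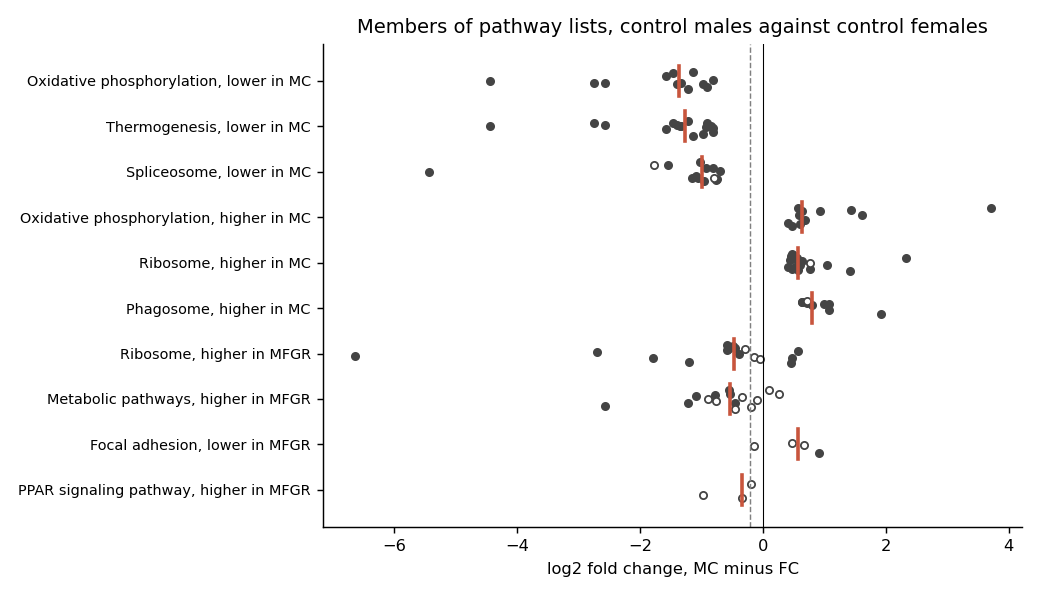
Log2 fold change of TPM + 1 (MC minus FC, x axis) of the tested members of 10 pathway lists, each point 1 transcript, filled where the limma adjusted p was under 0.05 and open otherwise. Red bars are list medians, the dashed line is the median of all transcripts tested (-0.20), and the medians of the ribosome lists of the 2 comparisons lie on opposite sides of it (0.57 and -0.47).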

How the data were processed

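The authors extracted RNA from perirenal adipose tissue of each fetus, made libraries with a Swift RNA kit, checked reads with FastQC 0.11.9 and quantified them with Salmon (version not given in the sources used here) against the Ensembl transcript set of sheep (Oar_rambouillet_v1.0). They deposited TPM per transcript, 1 column per fetus, named by group and number. TPM keeps no counts, so no count model was used.

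Here the 4 MC and 4 FC columns were filtered at 20 TPM in 3 libraries, transformed to log2(TPM + 1) and fitted without covariates (limma 3.58.1, R 4.3.3, trended prior). The limits for a call were an adjusted p of 0.05 (Benjamini-Hochberg) and a fold of 1.5. Named transcripts under the filter came from a fit with the filter at 1 TPM in 3 libraries. Single values were compared with exact permutation tests, two-sided. The scripts were tested on simulated data.

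The named transcripts are those the study's main tables pair with 1 identifier (TCF21, which shares its identifier with CIDEA_202, was left out), and, of unnamed ones, the 2 highest and 2 lowest called transcripts of a pathway list. Lists truncated in the supplement (2) were not used. Members, lists and ratios were chosen with earlier results of these data known. The alternatives were another pseudocount (0.1), 3 other filters, 3 other scalings, no variance trend, library weights, all 16 libraries, a replicate block, other fold limits and leaving out each library.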

Additional observations from a re-analysis of the deposited data

Results flagged for a closer look

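In 94 groups of 4 libraries, 6 held 1 library whose gap to the next exceeded Dixon's 95% critical value, and chance gives about 1 in 20. In MC, UCP1 was 3366 TPM in the second fetus, and HOXC9 was 6.94 TPM in the third. ENSOART00020001516 was 238 TPM in the second MC fetus and below the other 3, and ENSOART00020034647 was 5.43 TPM in the first MC fetus and 0 in the other 3. In FC, ENSOART00020039893 was 231 TPM in the fourth fetus and ENSOART00020021052 was 122 TPM in the second, both below the other 3. For all but UCP1 the MC and FC libraries still did not overlap, but the unnamed transcripts were chosen for their large differences.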

How the results depend on the processing

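The number of calls followed the filter, the fold limit and the scaling. It was 2657 (764 higher and 1893 lower in MC) with the filter at 1 TPM, 2188 (583 and 1605) with no filter, and 604 (135 and 469) with 20 TPM required in all 8 libraries. It was 589 (103 and 486) with a 2-fold limit, and 430 were higher with no fold limit. Quantile normalization gave 590 higher and 575 lower, and rescaling without the mitochondrial transcripts 419 higher. Leaving out 1 library gave 994 to 1211 calls, 182 to 339 of them higher and 730 to 1012 lower. With the replicate number as a block there were 1119 calls (232 and 887). The numbers do not pair the fetuses, since deviations of same-numbered libraries correlated at -0.06 to -0.03 and 0 of 4 MC libraries correlated best with their own number. Without the second MC and the third FC library, chosen after seeing the data, 1025 were called (308 and 717). Of 455 values of named transcripts under alternatives, 33 lost and 16 gained significance, and 5, all of transcripts that did not pass, changed sign by more than a standard error (CIDEA_201, ADIPOQ, ND1 and ND5). The other 401 stayed on the same side of the threshold. ND3, ND6 and THY1_202 stayed past it in every alternative that tested them, and ATP6, COX3 and ND4 in all but the one with no filter. THY1_202 was not tested without FC1, FC2 or FC4, or with 20 TPM required in all 8 libraries, since it was then under the filter. The cause of the shifts between settings was not tested. TPM gives no depth, so low transcripts carry a counting error that could not be estimated.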

Other observations

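Within each sex 1 fetus stood at an extreme for several fat cell markers at once, a pattern noticed after the values were seen and not tested. The second MC fetus had the highest UCP1 (3366 TPM), FABP4 (4002 TPM) and leptin (47.9 TPM) of the males, and the lowest ADIPOQ (2197 TPM), THY1_201 (33.1 TPM) and THY1_202 (3.80 TPM). The third FC fetus had the highest UCP1 (4430 TPM), FABP4 (10369 TPM) and leptin (46.3 TPM) of the females, and the lowest ADIPOQ (1741 TPM), THY1_201 (10.9 TPM) and THY1_202 (16.5 TPM). The summed TPM of the focal adhesion list was also lowest in these 2 fetuses, at 422 in the male and 269 in the female. CIDEA_201 did not follow, since it was highest of the males in the second MC fetus (91.5 TPM) and lowest of the females in the third FC fetus (75.3 TPM). HOXC9 did not follow either, with neither fetus at an extreme (3.72 and 10.2 TPM), while CIDEA_202 was lowest in both (12.5 and 5.94 TPM). ADIPOQ of the males lay close together, at 2197 to 2388 TPM. For UCP1, leptin and ADIPOQ the range over the 4 FC fetuses was wider than the difference between the group means. The same held for FABP4, CIDEA_201, CIDEA_202 and THY1_202, so it does not set apart the markers that did not pass.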
